A study of Homo sapiens with 30 samples.

Results

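H3K27me3 and H3K9me3 were compared in control HEK293T cells, a line derived from human embryonic kidney that carries the SV40 large T antigen. The members were the peaks of the 2 control lists on chromosomes 1 to 22, taken by list and chromosome, with no use of their height. They comprised 73667 H3K27me3 peaks and 75538 H3K9me3 peaks, 149205 of the 431864 peaks that the 5 lists of the series hold. Control cells were transfected with a negative control antisense oligonucleotide (NC ASO), grown in 6-well plates and collected after 48 h, and each mark had its own 3 NC ChIP replicates and its own 3 NC input replicates. The other lists came from cells given an ASO against LINC00641 or SETD5-AS1 (H3K27me3) or against LINC00662 (H3K9me3), and are used here only to show whether a value recurred in another list. Replicates had been merged before peak calling, so each mark in control cells is 1 pooled list. The spread between replicates is therefore unknown for every value given, and the marks could not be compared by a test.

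H3K27me3 is written by the EZH1 or EZH2 subunit of Polycomb repressive complex 2, is read by CBX proteins of Polycomb repressive complex 1, and lies over silent developmental genes, often in broad domains. H3K9me3 is written by SETDB1 and SUV39H enzymes and is read by HP1 proteins (CBX1, CBX3 and CBX5). A main recruiter of SETDB1 is TRIM28, which binds KRAB zinc finger proteins on DNA, and the genes for these same zinc finger proteins are a known target of H3K9me3.

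To show what the sequence under each mark looks like, the 300 bases centred on the strongest summit near a start site are given for genes with a single mark at the promoter, as the plus strand of hg19 with every CG in capitals. NEUROG3 and SORCS3 carried H3K27me3 and ZNF454 carried H3K9me3. The NEUROG3 window lay in its coding exon, that of SORCS3 in an intron, and that of ZNF454 within 1 kb of the start.
NEUROG3, H3K27me3, chr10:71332315-71332614: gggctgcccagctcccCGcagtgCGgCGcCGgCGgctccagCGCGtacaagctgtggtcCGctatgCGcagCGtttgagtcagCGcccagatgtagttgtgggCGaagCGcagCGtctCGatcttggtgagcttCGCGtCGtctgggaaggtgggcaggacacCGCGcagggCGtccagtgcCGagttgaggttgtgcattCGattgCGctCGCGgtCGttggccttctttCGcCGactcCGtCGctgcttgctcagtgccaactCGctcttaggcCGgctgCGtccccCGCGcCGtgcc
SORCS3, H3K27me3, chr10:106403118-106403417: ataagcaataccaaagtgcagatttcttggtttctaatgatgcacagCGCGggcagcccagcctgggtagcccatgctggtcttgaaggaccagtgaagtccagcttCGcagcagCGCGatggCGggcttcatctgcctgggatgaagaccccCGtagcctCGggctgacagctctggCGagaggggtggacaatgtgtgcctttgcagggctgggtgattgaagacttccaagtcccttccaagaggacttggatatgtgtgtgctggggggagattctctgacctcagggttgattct
ZNF454, H3K9me3, chr5:178367779-178368078: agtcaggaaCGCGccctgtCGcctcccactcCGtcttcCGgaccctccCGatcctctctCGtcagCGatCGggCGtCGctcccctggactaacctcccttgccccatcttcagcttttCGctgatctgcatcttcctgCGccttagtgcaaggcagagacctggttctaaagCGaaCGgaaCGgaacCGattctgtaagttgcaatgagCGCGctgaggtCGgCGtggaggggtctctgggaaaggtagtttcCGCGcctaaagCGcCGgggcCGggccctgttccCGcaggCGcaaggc
The NEUROG3 window held 37 CG and had a GC content of 67.0%, and the ZNF454 window held 28 CG at 62.3%. The SORCS3 window held 9 CG at 56.0%. These are examples, and the shares over all summits are given with the sequence comparison.

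A second set shows H3K9me3 summits in coding exons of zinc finger genes. The commonest 14-base word in the coding sequence of the 543 zinc finger genes was ACTGGAGAGAAACC, with 878 occurrences. It encodes the linker between neighbouring zinc fingers. Both windows below are 300 bases of coding exon around an H3K9me3 summit, with this word in capitals, and both were chosen after their values were seen.
ZNF892, H3K9me3, chr2:95880559-95880858: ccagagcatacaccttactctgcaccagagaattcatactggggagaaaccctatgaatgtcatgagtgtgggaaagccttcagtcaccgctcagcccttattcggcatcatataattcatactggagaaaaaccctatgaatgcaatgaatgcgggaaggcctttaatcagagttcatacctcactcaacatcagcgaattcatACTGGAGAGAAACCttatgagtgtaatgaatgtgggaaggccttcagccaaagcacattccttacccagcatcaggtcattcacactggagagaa
ZKSCAN7, H3K9me3, chr3:44611794-44612093: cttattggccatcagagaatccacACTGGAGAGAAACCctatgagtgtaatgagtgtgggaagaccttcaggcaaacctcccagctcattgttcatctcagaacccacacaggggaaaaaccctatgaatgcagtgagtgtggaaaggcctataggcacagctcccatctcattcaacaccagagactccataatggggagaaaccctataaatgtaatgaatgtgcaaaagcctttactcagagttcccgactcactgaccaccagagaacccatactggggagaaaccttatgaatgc
Each of these summits held 29 fragments, 5.67 times the local input.

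Most peaks of each mark did not overlap a peak of the other. H3K27me3 peaks covered 2.08% and H3K9me3 peaks 1.83% of non-N bases, so unrelated placement would also give few overlaps. Overlap under such placement was not computed, so the shares below do not show that the marks avoid each other. Of the H3K27me3 peaks, 66355 (90.1%, Wilson 95% interval 89.9 to 90.3%) had no H3K9me3 peak that overlapped by at least 1 bp, and of the H3K9me3 peaks 68040 (90.1%, interval 89.9 to 90.3%) had no H3K27me3 peak. These intervals cover counting error only. Over the 22 chromosomes the first share ran from 77.8% on chromosome 19 to 95.2% on chromosome 13, and the second from 81.1% on chromosome 16 to 99.6% on chromosome 13. The distance to the other mark differed more than the overlap. An H3K27me3 peak that stood alone was a median of 9.66 kb from the nearest H3K9me3 peak, whereas an H3K9me3 peak that stood alone was 141 kb from the nearest H3K27me3 peak. Distances under unrelated placement were not computed, so these medians do not show that H3K27me3 peaks lay unusually close to H3K9me3 peaks. At similar total cover, H3K27me3 was the more unevenly spread mark. The median window of 1 Mb had 0.146% of its bases under H3K27me3 and 1.35% under H3K9me3. How far this uneven spread accounts for the difference in distance was not tested.

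The lists were similar in depth and strength. The genome-wide level recovered from the peak values was 3.85 fragments per base for H3K27me3 and 4.29 for H3K9me3, the median fold enrichment was 3.297 and 3.211, and the median summit held 17 and 22 fragments. Peaks covered 2.08% of the 2685 Mb of non-N sequence with H3K27me3 and 1.83% with H3K9me3. The median local input, relative to the genome-wide level of the list, was 1.05 at lone H3K27me3 peaks and 1.32 at lone H3K9me3 peaks. Local inputs over 5 times that level, where extra copies or misplaced reads are common, occurred at 0.371% and 1.47% of all peaks. A gene or window without a peak is one where enrichment did not pass the authors' threshold at this depth.

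At promoters, taken as 1 kb on either side of the 5′ end of a protein-coding gene, 1152 of 19222 genes carried H3K27me3 only (5.99%) and 880 carried H3K9me3 only (4.58%). Both marks were at 152 promoters and neither at 17038. With −log10 q of at least 5 the single-mark promoters were 760 and 495, and within 2.5 kb of the start they were 1332 and 1334. Over whole genes, 460 had at least 10% of their length in H3K27me3 peaks and less than 1% in H3K9me3 peaks (2.39%), and 534 had the reverse (2.78%). The readings by promoter and by gene rarely conflicted: 342 genes were H3K27me3 only in both and 342 were H3K9me3 only in both. 3 and 2 genes crossed over. The readings share bases, so part of this agreement is built in. Of the H3K27me3-only promoters 807, and of the H3K9me3-only promoters 536, belonged to genes with neither single-mark class over the gene. Conversely, 104 genes with H3K27me3 only over the gene and 186 with H3K9me3 only had neither mark at the promoter. In the LINC00641 and LINC00662 ASO lists, 907 of the H3K27me3-only promoters (78.7%) and 468 of the H3K9me3-only promoters (53.2%) had the same class again. 15 and 5 had the opposite class there, and the remainder had lost the mark or carried both. Over all genes, 6.32% were H3K27me3 only and 3.48% H3K9me3 only in these lists. The LINC00662 ASO list covers 29.6 Mb, beside 49.1 Mb for H3K9me3 in NC. The LINC00641 ASO list covers 44.4 Mb, beside 55.9 Mb for H3K27me3 in NC. How far the smaller list accounts for the lower recurrence at H3K9me3-only promoters was not tested.

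The H3K27me3-only promoters were ranked by the bases of the mark within 5 kb of the start site. NEUROG3, the bHLH factor of endocrine pancreas precursors (chr10:71331454-71333178), had 9708 bases of H3K27me3 there in NC, 8254 in the LINC00641 ASO list and 8720 in the SETD5-AS1 ASO list. For H3K9me3 it had 0 bases in NC and 889 in the LINC00662 ASO list. The whole gene lay under H3K27me3 in all lists of that mark. ACKR1, the atypical chemokine receptor that carries the Duffy antigen (chr1:159174665-159176290), had 9620, 9057 and 7882 bases of H3K27me3 and 0 of H3K9me3 in both lists of that mark. ACKR1 was thus marked over its whole length, as was NEUROG3.

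Some of these genes carried H3K27me3 far beyond the promoter. RBFOX1, a splicing factor of neurons and muscle (chr16:5289803-7763342), had 34.5% of its length under H3K27me3 and 1.105% under H3K9me3 in NC. In the other lists its H3K27me3 share was 28.2% and 23.6%. SORCS3, a sorting receptor of neurons, had 38.8%, 28.5% and 31.7%, and KIRREL3, an adhesion protein of synapses, had 43.9%, 47.2% and 43.6%. Their H3K9me3 shares in NC were 1.25% and 2.06%. The remaining genes of this rank were PRAMEF7, ONECUT3, STK32A, the serotonin receptor gene HTR5A, and the neural homeobox or POU genes BSX, LHX5 and POU4F2. HTR5A had the most of the other mark, with 2262 bases of H3K9me3 within 5 kb that stayed outside the promoter.

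At the H3K9me3-only promoters the same ranking gave 10 zinc finger genes and 2 clustered protocadherins. ZNF649 (chr19:52392488-52408293) had 7665 bases of H3K9me3 within 5 kb in NC and 5406 in the LINC00662 ASO list, and no base of H3K27me3 in any of the 3 lists of that mark. ZNF454 on chromosome 5 had 7601 and 3333 bases, and ZNF256 on chromosome 19 had 7327 and 6160. All 3 were without H3K27me3 within 5 kb in every list. ZNF10, whose product was a source of the KRAB repressor domain used in engineered repressors, and its neighbour ZNF891, which starts on the opposite strand of chromosome 12, had 6805 and 7051 bases and shared their strongest peak. It held 62 fragments, 6.30 times the local input. The remaining zinc finger genes were ZNF418, ZNF442, ZNF718, ZNF766 and ZNF678, with between 5984 and 6809 bases. PCDHGA3 and PCDHGA12 had 5940 and 5828. All of these genes had fewer bases of H3K9me3 in the LINC00662 ASO list, a list that covers less sequence as a whole.

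**Figure D1:**
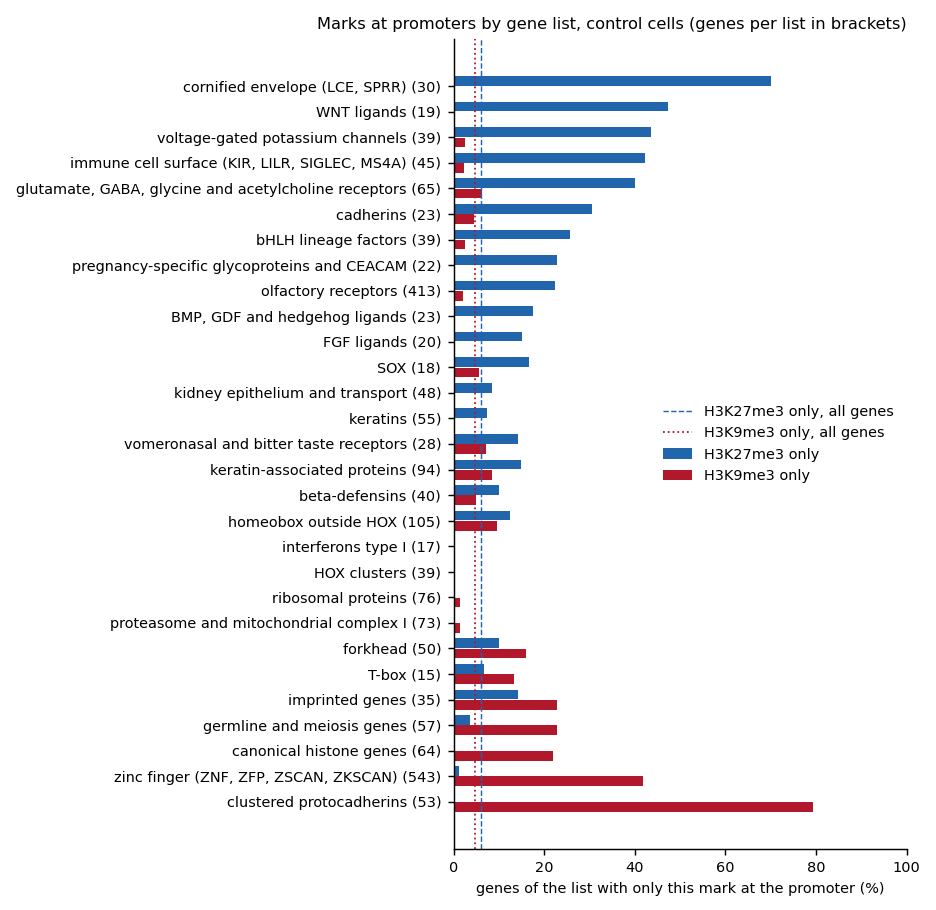
Share of the genes of each list with H3K27me3 only (blue) or H3K9me3 only (red) at the promoter in control cells, in percent, for lists of at least 15 genes. The dashed and dotted lines are the shares over all 19222 genes, 5.99% and 4.58%. Cornified envelope genes reach 70% for H3K27me3 and clustered protocadherins 79.2% for H3K9me3.

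Gene groups separated by mark, as the bar chart of gene lists shows. Among ligands that pattern tissues, single marks at the promoter were H3K27me3. 9 of 19 WNT genes (47.4%, beside 5.99% of all genes), among them WNT1, WNT3A, WNT7A and WNT7B, carried H3K27me3 only, and 0 carried H3K9me3 only. WNT7A had 5227 bases of H3K27me3 within 5 kb, with a strongest peak of 62 fragments at 8.22 times the local input. 3 of 20 FGF genes (FGF3, FGF10 and FGF14) and 4 of 23 genes for BMPs, GDFs and hedgehogs (BMP6, GDF10, IHH and SHH) had H3K27me3 only, again with 0 for H3K9me3. SHH, the morphogen of limb and neural tube, had 6569 bases in NC, 6741 in the LINC00641 ASO list and 6069 in the SETD5-AS1 ASO list.

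In control cells transcription factor families differed from each other in their counts. Of 39 bHLH lineage factors, 10 had H3K27me3 only (25.6%, beside 5.99% of all genes). Among these 10 were ATOH1 of neural precursors, MYOD1 of muscle and PTF1A of pancreas. 1 of the 39 had H3K9me3 only (2.56%, beside 4.58% of all genes), HAND2, a factor of heart and limb. 3 had both marks (NEUROD1, OLIG3 and TCF24). Among 105 homeobox genes outside the HOX clusters the marks were nearly even, 13 (12.4%) against 10 (9.52%), each above its share of all genes. BARHL1, BSX, DBX1, GSX1, IRX4, LHX2, LHX5, LHX6 and LMX1B were on the H3K27me3 side, and EVX2, GBX1, IRX1, IRX2, LMX1A, NKX3-2 and SIX6 on the H3K9me3 side, so that close paralogues such as LMX1A and LMX1B, or IRX1 and IRX4, carried different marks. SOX11, SOX14 and SOX21 had H3K27me3 only and SOX30 had H3K9me3 only, of 18 SOX genes (16.7% and 5.56%). PAX4 and PAX7 had H3K27me3 only and PAX9 had H3K9me3 only, of 9 (22.2% and 11.1%). TBX21 stood against TBX15 and TBX20 among 15 T-box genes (6.67% and 13.3%), and 0 of 5 GATA genes carried a mark at the promoter. In the LINC00641 and LINC00662 ASO lists it was 7 bHLH genes against 5, 15 homeobox genes against 7 and 2 SOX genes against 3. With SETD5-AS1 in place of LINC00641 it was 10 against 6, 16 against 8 and 2 against 3. No PAX or T-box gene had H3K9me3 only in either pair of lists. The contrast at bHLH genes thus narrowed, and the order at SOX genes turned.

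Of 50 forkhead genes, 5 had H3K27me3 only (FOXA2, FOXC2, FOXI3, FOXO6 and FOXQ1) and 8 had H3K9me3 only (10% and 16%). 5 of those 8 were FOXD4, FOXD4L1, FOXD4L2, FOXD4L3 and FOXD4L4, near-identical copies among which short reads cannot be placed with certainty. The HOX clusters, a common target of Polycomb, had been set as a check of the H3K27me3 antibody, and this check was not met. None of the 39 HOX genes had an NC peak of either mark within 5 kb of its start, and in the SETD5-AS1 ASO list 2 of them had one of H3K27me3. The cause was not tested. A missing H3K27me3 peak at other genes is likewise not proof that the mark is absent there.

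Receptors and channels of neurons had H3K27me3 only more often than all genes, while 33 of the 65 receptors and 20 of the 39 channels had neither mark. Among 65 receptor genes for glutamate, GABA, glycine and acetylcholine, 26 had H3K27me3 only (40%), 4 had H3K9me3 only (CHRNA7, GABRR1, GRIA2 and GRM6) and 2 had both. CHRM2, a muscarinic receptor gene, had 7965 bases of H3K27me3 within 5 kb in NC, 6297 in the LINC00641 ASO list and 6395 in the SETD5-AS1 ASO list, and 0 of H3K9me3 in NC. GRIA1 and GRIA2 encode subunits of the same AMPA receptor and differed in mark. GRM6 lies beside ZNF454, in one of the windows richest in H3K9me3. Of 39 voltage-gated potassium channel genes, 17 had H3K27me3 only (43.6%), 1 had H3K9me3 only (KCNA3) and 1 had both (KCNC2). KCNQ3, a subunit of the M current of neurons, had 49.3% of its 360235 bases under H3K27me3, and 48.3% and 51.6% in the other lists. Cadherin genes (CDH) gave 7 of 23 against 1, with CDH8, CDH11 and CDH22 on the H3K27me3 side and CDH9 on the other.

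Several clustered families of other tissues had many members under H3K27me3. Of 30 cornified envelope genes (LCE and SPRR) of the epidermis, 21 had H3K27me3 only at the promoter (70%), 4 had both and 0 had H3K9me3 only. Their median share of length under H3K27me3 was 46.4%. These genes are short neighbours on chromosome 1, so they share peaks and are not independent. Of 45 immune cell surface genes, 19 had H3K27me3 only, 7 of them LILR, 7 MS4A and 5 SIGLEC, and only MS4A6E had H3K9me3 only. LILRA1 had 81.2% of its length under H3K27me3, SIGLEC14 had 59.7%. Among genes of at least 10 kb that were H3K27me3 only over the gene, LAIR2, a secreted collagen receptor of immune cells beside the LILR genes, was the most covered, with 83.1% under H3K27me3 in NC, 81.7% and 82.1% in the other lists, and 0% under H3K9me3. CEACAM18 followed with 68.5% and CD300E, a receptor of myeloid cells, with 56.0%, both with 0% under H3K9me3.

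Olfactory receptors carried H3K27me3 only at 92 of 413 promoters (22.3%) and H3K9me3 only at 8 (1.94%), with 7 under both. Over the gene, 74 were H3K27me3 only and 5 were H3K9me3 only. OR10H1, OR10H2 and OR4F15 had 6636, 5450 and 5462 bases of H3K27me3 within 5 kb. The median olfactory receptor had none. Smaller families of sensory, epithelial and placental genes had these counts of H3K27me3 only and H3K9me3 only: 4 against 2 of 28 vomeronasal and bitter taste receptors, 14 against 8 of 94 keratin-associated proteins, 4 against 0 of 55 keratins, 4 against 2 of 40 beta-defensins, and 5 against 0 of 22 pregnancy-specific glycoproteins and CEACAMs. Keratins (7.27% for H3K27me3) were near the 5.99% of all genes, beta-defensins (5.0% for H3K9me3) were near the 4.58%, and keratin-associated proteins exceeded both shares, with 14.9% and 8.51%. The last group had 9 genes H3K27me3 only over the gene and 0 for H3K9me3. KRT6A had H3K27me3 only at the promoter but both marks over the gene, with 33.9% of its length under H3K27me3 and 24.2% under H3K9me3.

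The zinc finger genes were the largest group under H3K9me3. Of 543 genes named ZNF, ZFP, ZSCAN or ZKSCAN, 227 had H3K9me3 only at the promoter (41.8%, beside 4.58% of all genes), 6 had H3K27me3 only and 6 had both. Over the gene, 263 were H3K9me3 only and 1 was H3K27me3 only. Their median share of length under H3K9me3 was 11.3% in control cells. The 6 with H3K27me3 only were ZNF385D, ZNF423, ZNF469, ZNF521, ZNF804B and ZSCAN5C. ZNF423 and ZNF521 are developmental regulators with many fingers and no KRAB domain.

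Place mattered within the zinc finger genes. On chromosome 19, 166 of 258 had H3K9me3 only at the promoter (64.3%) and the median gene had 24.5% of its length under the mark, with a highest value of 86.5% at ZNF134. On the other chromosomes it was 61 of 285 (21.4%) with a median of 1.69%. Genes of chromosome 19 that are not zinc finger genes had 36 of 1222 (2.95%), close to the 617 of 17457 (3.53%) elsewhere. The zinc finger genes of chromosome 19, and not the chromosome as a whole, thus held most of its H3K9me3-only promoters. Of the pseudogenes with such names, 28 of 84 (33.3%) also had H3K9me3 only at the 5′ end.

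Of the 10 most covered genes of at least 10 kb that were H3K9me3 only over the gene, 9 were zinc finger genes. ZNF134 (chr19:58125601-58136092) had 86.5% of its length under H3K9me3 in NC and 62.0% in the LINC00662 ASO list. ZNF121 had 82.7% and 38.1%, ZNF286A on chromosome 17 had 77.2% and 51.4%, and ZNF776 had 77.1% and 50.6%. None had a base under H3K27me3 in the 3 lists of that mark. The exception in kind was TUG1 on chromosome 22, best known as a long noncoding RNA and listed as protein-coding by the annotation, with 70.5% under H3K9me3 in NC and 9.82% in the LINC00662 ASO list. The drop between lists was larger at TUG1 than at the zinc finger genes named here, and was not tested.

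**Figure D2:**
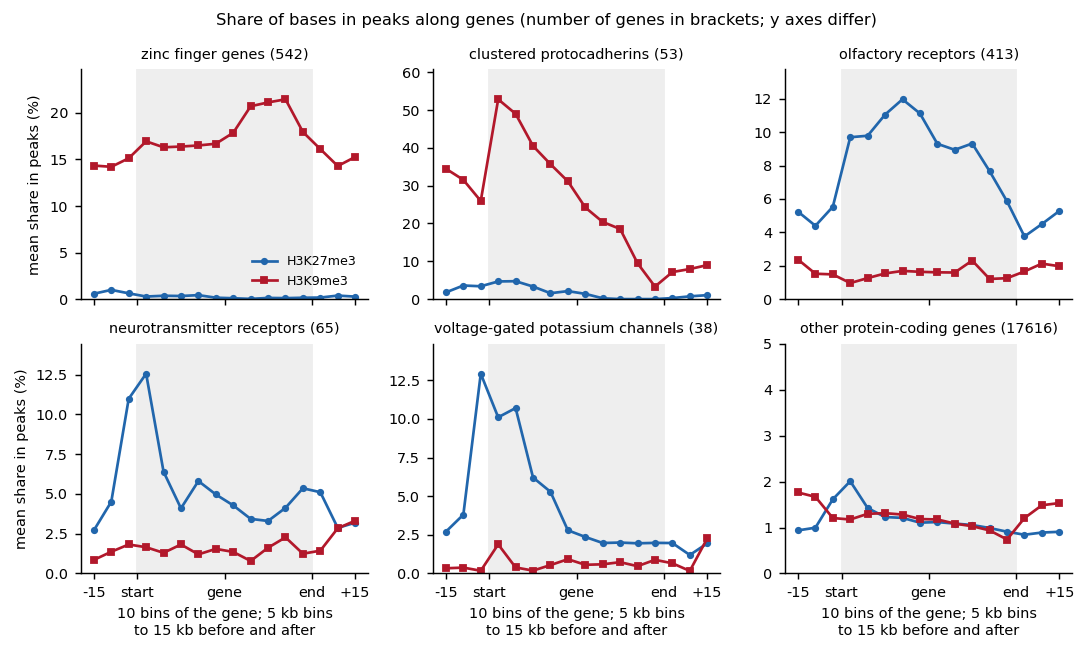
Mean share of bases in H3K27me3 (blue circles) and H3K9me3 (red squares) peaks along genes of 6 groups in control cells, in percent, in 10 equal bins from start to end (grey) and in 5 kb bins to 15 kb on either side. H3K9me3 of zinc finger genes is highest toward the gene end, H3K27me3 of receptor and channel genes is highest around the start, and the last panel holds protein-coding genes other than zinc finger genes.

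The position of the mark along the gene differed between groups, as the profile along genes of at least 2 kb (olfactory receptors of any length) shows. In zinc finger genes mean H3K9me3 was 16.9% in the first 10% of the gene and rose to 21.5% between 80 and 90% of its length, where the exon with the zinc finger array usually lies. Over the pooled bases of these genes, exons were covered to 19.2% and introns to 11.5%. Pooling gives long genes more weight, so these shares are not on the scale of the profile, which averages genes. Mean H3K9me3 was still 14.3% between 10 and 15 kb upstream. These flanks can lie in neighbouring zinc finger genes, so the value does not show that the mark runs past single genes. In the clustered protocadherins H3K9me3 was highest in the first 10%, 52.9%, and fell to 3.3% in the last 10%. For neurotransmitter receptors H3K27me3 was 12.6% in the first 10% of the gene and 11.0% in the 5 kb before it. In potassium channels it was 12.9% in those 5 kb and 1.98% in the last 10%. Protein-coding genes other than zinc finger genes, members of the other lists included, averaged 2.01% H3K27me3 in their first 10% and 1.17% H3K9me3.

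Of 53 clustered protocadherin genes, which give neurons their surface identity by the choice of 1 promoter of an array on chromosome 5, 42 had H3K9me3 only at the promoter (79.2%), 6 had both and 0 had H3K27me3 only. PCDHB9, a gene of a single exon, had 58.9% of its length under H3K9me3 and 5568 bases within 5 kb. PCDHGB7 had 5512 bases and PCDHGA12 had 5828, with strongest peaks of 5.03 and 5.33 times the local input. The alpha and gamma genes share their last exons, so shares over these genes count the same bases more than once. The 6 with both marks were PCDHAC1, PCDHB1, PCDHB6, PCDHGA5, PCDHGA7 and PCDHGB3. In the LINC00641 and LINC00662 ASO lists 42 of the 53 were H3K9me3 only, and 0 were H3K27me3 only.

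Germline genes are often repressed outside the gonad, and imprinted genes on 1 allele. Among 57 germline and meiosis genes, 13 had H3K9me3 only (22.8%, beside 4.58% of all genes). These included DDX4, the germ cell helicase, SYCP1 of the synaptonemal complex, PRDM9, the methyltransferase that places recombination hotspots, and HORMAD1. RAD21L1 and ZP4 had H3K27me3 only (3.51%, below the 5.99% of all genes). In the LINC00641 and LINC00662 ASO lists it was 7 germline genes against 1. SYCE1 had 3780 bases of H3K9me3 within 5 kb, at a low peak of 2.45 times the local input. The local input there reached 6.62 times the genome-wide level, so extra copies or misplaced reads are possible. Of 35 imprinted genes, 8 had H3K9me3 only (22.9%: MEST, MKRN3, PEG10, PEG3, SGCE, UBE3A, ZIM2 and ZNF331). H3K27me3 only was at 5 (14.3%: CDKN1C, DLGAP2, KCNK9, PHLDA2 and RTL1). PEG3 and ZIM2 share a start region and had the same 2803 bases, and PEG10 and SGCE are also close neighbours. Over the gene it was 3 imprinted genes for each mark, and in the LINC00641 and LINC00662 ASO lists 6 had H3K9me3 only and 5 had H3K27me3 only at the promoter. CDKN1C and PHLDA2 are neighbours on chromosome 11. CDKN1C, the 1 of 7 CDK inhibitor genes with a single mark, had 555 bases of H3K27me3 in NC and 0 in both other lists, a weak signal that did not recur.

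Of 64 histone genes, 14 had H3K9me3 only at the promoter (21.9%) and 0 had H3K27me3 only. The values were low: H3C8 and H2BC10, neighbours on chromosome 6, had 1511 bases within 5 kb and a strongest peak of 27 fragments at 2.67 times the local input. In the LINC00662 ASO list with either H3K27me3 list, 7 of the 64 were H3K9me3 only. Genes used by every cell had almost none of either mark. Of 76 ribosomal protein genes, 1 had H3K9me3 only, RPL10L, a retrogene of the testis, and 0 had H3K27me3. Of 73 genes of the proteasome and mitochondrial complex I it was also 1, PSMA8, the subunit of the testis proteasome. Of 48 genes of kidney epithelium and transport, 4 had H3K27me3 only (8.33%, near the 5.99% of all genes: UMOD, CDH6, SCNN1G and SLC26A4) and 0 had H3K9me3 only. UMOD, the uromodulin gene of the thick ascending limb, had 5684 bases of H3K27me3 within 5 kb. No type I interferon gene of 17 carried a mark.

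Over the 145 symbol families of at least 15 genes, none had 20% of its promoters under each mark alone. 12 reached 20% for H3K27me3 only and 6 for H3K9me3 only. With so few of the 145, unrelated placement would also leave few or no families in both groups. Besides the LCE, WNT and cadherin families, the highest for H3K27me3 were the stem MS, the MS4A genes, with 7 of 16, KCNK, a family of potassium leak channels, with 6 of 15, the HTR serotonin receptors with 5 of 16, and the SYT synaptotagmins and UNC genes with 5 of 18 each. For H3K9me3 they were PCDHB with 13 of 16, ZFP with 11 of 21, ZNF with 213 of 503, PRDM with 4 of 15, PRR with 9 of 36 and ZSCAN with 5 of 21. PRR is a stem of unrelated proline-rich proteins. 58 families had no H3K27me3-only promoter and 63 had no H3K9me3-only promoter. At the 5.99% and 4.58% of all genes, small families would often have none. The number expected without regard to family was not computed.

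Neighbouring genes tended to share a mark. Of 601 pairs of adjacent marked promoters less than 100 kb apart, 551 carried the same single mark (91.7%). With pairs under 2 kb left out, which can share a peak, it was 450 of 500 (90%). The share fell to 64.8% of 670 pairs between 100 kb and 1 Mb apart and to 57.6% of 739 pairs farther apart. Pairs drawn from all 2032 single-mark promoters without regard to chromosome or order would share a mark in 50.9% of cases. Chromosomes differ in their mix of marks, and a value within chromosomes was not computed. The 57.6% is therefore not shown to exceed what such a mix would give. Around H3K27me3-only promoters mean H3K27me3 was 19.1% of bases at 1 to 5 kb and 5.31% at 100 to 250 kb. Around H3K9me3-only promoters H3K9me3 was 17.3% and 8.72% at the same distances, and H3K27me3 stayed between 0.745% and 1.41%.

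**Figure D3:**
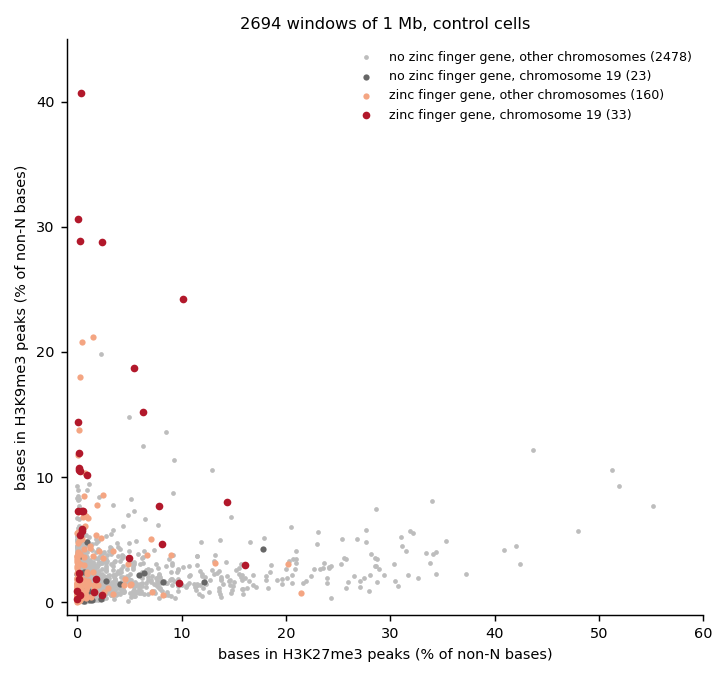
Share of non-N bases in H3K27me3 peaks (horizontal axis) and in H3K9me3 peaks (vertical axis), in percent, for 2694 windows of 1 Mb in control cells. Windows with a zinc finger gene on chromosome 19 (dark red) reach 40.7% H3K9me3 at under 1% H3K27me3, while the 8 windows with the largest excess of H3K27me3, up to 55.2%, hold no zinc finger gene.

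At the scale of 1 Mb, 44 of 2694 windows had at least 5% of their non-N bases under H3K27me3 and less than 1% under H3K9me3 (1.63%), and 59 had the reverse (2.19%). With a stricter threshold, −log10 q of at least 5, the order turned, to 76 and 23. In 32 windows both marks reached 5%, and in 757 both stayed under 1%. Across windows the marks had a Pearson correlation of 0.197 and a Spearman correlation of 0.256. This is a description over 2694 neighbouring windows that share libraries and sequence composition. A window rich in one mark was therefore not poor in the other as a rule, as the scatter of windows shows. The 78 windows with at least 20% H3K27me3 had a median of 3.005% H3K9me3, more than the 1.35% of all windows.

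The window richest in H3K27me3 was chr1:4000001-5000000, around AJAP1, an adhesion-associated gene of neurons. It had 55.2% H3K27me3 in NC, 56.9% and 53.7% in the other lists, and 7.67% H3K9me3. The next megabase, chr1:5000001-6000000, held the start of no protein-coding gene and had 48.0% and 5.67%. On chromosome 10 the gene-free window chr10:132000001-133000000 had 52.0% and 9.26%, and chr7:153000001-154000000, with the potassium channel partner gene DPP6, had 51.3% and 10.6%. The windows of the neurotrophin receptor gene NTRK3 on chromosome 15 and of the first part of RBFOX1 on chromosome 16 had 42.0% and 42.4%, with 4.44% and 3.01% H3K9me3. All but that of RBFOX1, with 7 gene starts, held at most 1 gene start, and all of them recurred in both other H3K27me3 lists at 36.9% or more.

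The purest H3K27me3 windows were less rich. The 2 megabases after the start of RBFOX1, chr16:6000001-7000000 and chr16:7000001-8000000, had 28.0% and 24.3% H3K27me3 and 0.850% and 0.325% H3K9me3. They fell to 20.4% and 17.2% in the LINC00641 ASO list and to 15.56% and 12.99% in the SETD5-AS1 ASO list. Of the 44 H3K27me3-only windows 9 were on chromosome 16 and 7 on chromosome 3, which was not set against the lengths of these chromosomes. 12 had no start of a protein-coding gene, beside 340 of all 2694 windows. 0 were on chromosome 19, which holds only 56 of the 2694 windows, so few or none would be expected there. The median local input at H3K27me3 peaks of the 44 windows was 1.00 times the genome-wide level.

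The windows richest in H3K9me3 were arrays of zinc finger genes. The last full megabase of chromosome 19, chr19:58000001-59000000, has 46 gene starts, 36 of them of zinc finger genes, and had 40.7% H3K9me3 in NC and 28.2% in the LINC00662 ASO list. H3K27me3 covered 0.382% of it. Next came chr19:37000001-38000000 with 30.7%, chr19:12000001-13000000 with 28.9% and chr19:53000001-54000000 with 28.8%, where 19 of 21, 17 of 48 and 20 of 27 gene starts were of zinc finger genes. Outside chromosome 19 the highest were chr5:178000001-179000000 (21.2%, with ZNF354A, ZNF354B, ZNF354C, ZNF454, ZNF879 and ZFP2), the left end of chromosome 4 (20.8%, with ZNF595, ZNF718, ZNF732, ZNF141 and ZNF721), the protocadherin window chr5:140000001-141000000 (19.9%) and the right end of chromosome 12 (17.98%, with ZNF10, ZNF26, ZNF84, ZNF140, ZNF268, ZNF605 and ZNF891). The protocadherin window had 2.25% H3K27me3 and held no zinc finger gene.

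Of the 59 H3K9me3-only windows, 32 held a zinc finger gene (54.2%), beside 193 of all 2694 windows (7.16%). 15 were on chromosome 19, which holds 56 of all windows, and 15 on chromosome 13. Those of chromosome 13 were of another kind, as in chr13:66000001-67000000, which has no gene start, a GC content of 34.9%, 9.31% H3K9me3 and 0% H3K27me3. Chromosome 13 as a whole had 2.62% of its bases under H3K9me3 and 0.183% under H3K27me3, the lowest H3K27me3 share of the 22. Chromosome 16 was at the other end with 5.19% under H3K27me3 and 1.47% under H3K9me3. Chromosome 19 had the highest H3K9me3 share, 6.56%, beside 2.97% for H3K27me3.

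**Figure D4:**
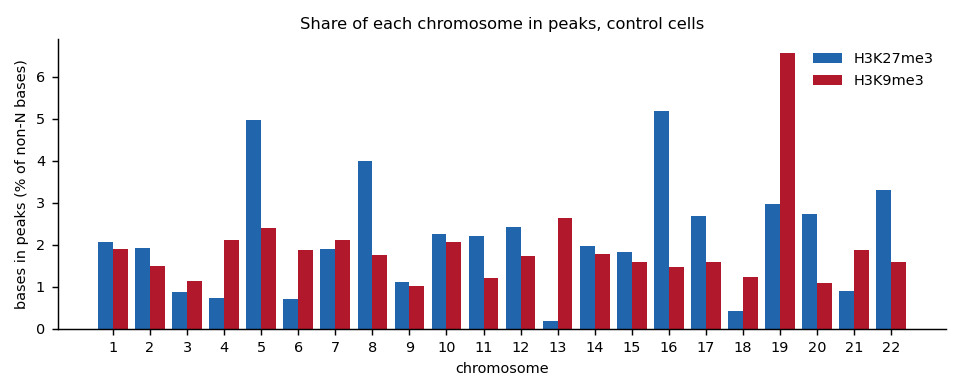
Share of the non-N bases of each chromosome in H3K27me3 (blue) and H3K9me3 (red) peaks of control cells, in percent. H3K27me3 is the larger on 14 of 22 chromosomes, and the ratio of the marks runs from 0.0698 on chromosome 13 to 3.54 on chromosome 16.

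On chromosome 19 blocks of the 2 marks lay side by side, which the map of 50 kb bins shows for the 3 Mb from 51 to 54 Mb, a stretch chosen after its values were seen. Of its 60 bins, 11 had at least 10% H3K27me3, 33 had at least 10% H3K9me3 and 2 had both. The H3K27me3 block held SIGLEC8, SIGLEC10, SIGLEC12, SIGLEC6, SIGLEC5, SIGLEC14, CEACAM18, HAS1, FPR2 and FPR3, genes of myeloid cells in the main, and reached 62.9% in the bin of SIGLEC8 and CEACAM18. ZNF175 starts inside this block, in a bin with 28.9% H3K27me3 and 7.38% H3K9me3. The bin of FPR1 had 1.92% and 11.0%, and from the next bin, at ZNF577, H3K9me3 was 40.9% and H3K27me3 0%. From there to the right end most bins held zinc finger genes under H3K9me3, with ZNF613 and ZNF649 at 48.6%. The highest H3K9me3 share, 52.9%, was in the bin of ERVV-1 and ERVV-2, envelope genes of endogenous retroviruses, where H3K27me3 was 16.1%.

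**Figure D5:**
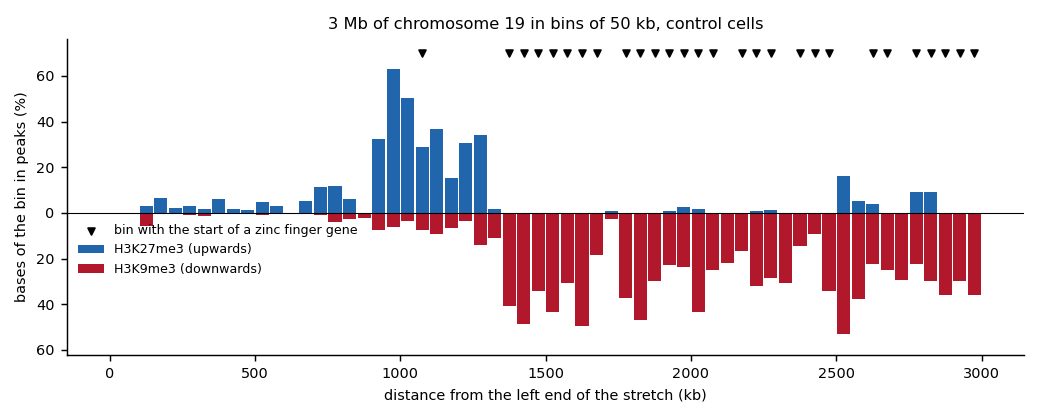
Share of bases in H3K27me3 peaks (blue, upwards) and H3K9me3 peaks (red, downwards) of control cells, in percent, in 60 bins of 50 kb along 3 Mb of chromosome 19; the horizontal axis is the distance from the left end in kb and triangles mark bins with the start of a zinc finger gene. A block of H3K27me3 that peaks at 62.9% gives way to H3K9me3 up to 52.9%.

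Base composition and short words were compared under the summits. In 300 bases around the summit, median GC content was 46.3% for lone H3K27me3 peaks, 49.0% for lone H3K9me3 peaks and 40% for 89474 windows placed every 30 kb. Windows with GC of at least 50% and a CpG ratio of at least 0.6, here called CpG-rich, made up 2.41%, 6.62% and 1.53%. At promoters, over 1 kb, the marks were close: 55.5% of H3K27me3-only, 56.6% of H3K9me3-only and 58.7% of unmarked promoters were CpG-rich. The linker word ACTGGAGAGAAACC, on either strand, was looked for in the 300 bases centred on the summit. It was at 51 lone H3K9me3 summits (0.0750%), at 2 lone H3K27me3 summits (0.00301%) and in 6 evenly placed windows (0.00671%). Of 604 lone H3K9me3 summits in exons of zinc finger genes, 49 held it (8.11%), and of all 3089 in these genes 50 did (1.62%). Of 8 lone H3K27me3 summits in such exons 0 held it. Since the word was taken from zinc finger genes, this describes where the summits lie and no site of binding.

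A simple satellite repeat was also on the H3K9me3 side. 3 copies of GGAAT in a row, on either strand, were found at 81 lone H3K9me3 summits, at 0 lone H3K27me3 summits and in 14 evenly placed windows. Repeats of this kind recur across pericentromeres, where reads cannot be placed with certainty. Of the lone H3K9me3 summits, 3089 (4.54%) lay in zinc finger genes, beside 149 (0.225%) of lone H3K27me3 summits and 0.811% of evenly placed positions. Introns held 30.7% of lone H3K27me3 and 34.7% of lone H3K9me3 summits, and 65.8% and 62.1% lay outside protein-coding genes.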

How the data were processed

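ChIP-seq of both marks in control cells was used as peak lists on hg19, with the 3 other lists of the series as alternatives. Per the study's methods and the submitters' processing notes, reads were trimmed (cutadapt 3.3), aligned (Bowtie2 2.4.2) and cleared of duplicates (GATK) by the authors, who then merged replicates and called narrow peaks against merged input with MACS2 2.2.7.1. The authors deposited a fold enrichment for each peak, the ratio of summit fragments plus 1 over local input plus 1. The authors also deposited −log10 p and −log10 q of each peak. Merging before calling means that a peak may rest on 1 replicate, which cannot be seen here. Duplicate removal and the handling of reads with several placements affect repeats and gene copies most.

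From these values the fragments and local input at each summit were solved for. The depth, 3.85 and 4.29 fragments per base genome-wide, makes single weak peaks imprecise. Covered bases were counted over genes of GENCODE 44 lifted to GRCh37, whose chromosomes match hg19. Samples were grouped by title. A gene was H3K27me3 only or H3K9me3 only at the promoter by any base of a peak within 1 kb of its start, and over the gene at 10% against 1%. Windows of 1 Mb needed 500 kb of non-N bases and used 5% against 1%. With 1 pooled list a mark there was no test. Shares have Wilson 95% intervals.

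The members, the 32 gene lists and the rules were chosen with earlier results of these data known. Genes were named by rule: for each mark the 12 single-mark promoters with the most bases within 5 kb (at most 2 per window, none where the local input passed 5 times the level of the genome), the 10 single-mark genes of at least 10 kb with the highest covered share, up to 4 genes of each list, 8 symbol families and 8 windows. Other genes named in counts were chosen after their values were seen, as were the map of chromosome 19 and the linker windows. Alternatives varied the q threshold, peak number, input level, windows, thresholds, overlap and lists. Chromosomes X and Y were not used here. Scripts ran in Python 3.11.15 with pysam 0.24.0, pandas 2.3.3 and numpy 2.4.6, scipy 1.17.1 served for intervals, and matplotlib 3.10.9 drew the plots. The functions were tested on simulated data. Some genes and sequences that the rules name are not reported here.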

Additional observations from a re-analysis of the deposited data

How the results depend on the processing

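Of 60 alternative values of the 8 main counts and shares, 35 stayed close to the main value and 25 moved. For counts, close was a wide ratio: 668 H3K9me3-only promoters beside 880, and 318 H3K27me3-only genes beside 460, passed as close. Shares were close only inside their Wilson interval, 89.9 to 90.3%, so very small changes passed as moved. The 35 and 25 mix these unlike rules. With −log10 q of at least 5, H3K27me3-only and H3K9me3-only promoters fell to 760 and 495, such windows became 76 and 23, and the shares of lone peaks rose to 95.09% and 96.32%. Equal numbers of peaks and the removal of input-rich peaks gave 90.4% and 90.36% of lone H3K27me3 peaks. With the LINC00641 and LINC00662 ASO lists there were 26 H3K9me3-only windows, and lone peaks were 88.92% and 87.58%. With the SETD5-AS1 and LINC00662 ASO lists there were 69 and 26 windows, and 87.06% of H3K9me3 peaks were alone. H3K9me3-only promoters numbered 1334 with 2.5 kb and 1356 with any transcript start. A threshold of 5% of the gene gave 936 H3K9me3-only genes, and 20% gave 280 and 329 genes. A threshold of 10% of the window left 13 and 14 windows. An overlap of at least 50% gave lone shares of 95.16% and 92.31%, and no other mark within 1 kb gave 82.83% and 86.24%. The tighter or wider definitions themselves change what is counted. For the other moves the cause was not tested. No paired analysis was possible because replicates had been merged before peak calling, and for the same reason no replicate could be left out.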

Other observations

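Genes that do not code for protein were also split by mark at their 5′ end. Of 18229 long noncoding RNA genes, 922 had H3K27me3 only (5.06%) and 1019 had H3K9me3 only (5.59%). Processed pseudogenes, copies of mRNAs set back into the genome, were more often under H3K9me3, 829 of 9246 (8.97%) against 331 (3.58%) for H3K27me3. Unprocessed pseudogenes, which arise by duplication, had 201 of 2194 (9.16%) and 180 (8.204%). Of 2841 miRNA genes, 208 had H3K9me3 only (7.32%) and 120 had H3K27me3 only (4.22%), and of 1392 snoRNA genes 62 (4.45%) and 27 (1.94%). Pseudogenes resemble their parent genes, and the part of misplaced reads in these counts was not tested.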
